A study of Mus musculus with 31 samples.

Results

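Gas5, Snhg17, Snhg15 and Malat1 are 4 long noncoding RNAs that were measured in colonic scrapings of mice infused rectally with short-chain fatty acids on a low-fat or a high-fat diet. They are 4 of 18820 genes that had a probe set listed for a single symbol, and each was represented by its probe set with the highest mean over 31 arrays. The 4 genes were selected on measured values, with earlier results of these data known, among them the levels on the propionate and saline arrays of the high-fat diet, so their values in comparisons with those arrays are given here as a description without a test. All 4 probe sets reached a linear intensity of 20 on all 31 arrays and so passed the filter on dim probe sets.

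The mice were male C57Bl/6J mice, 13 weeks old, for which the labels name no transgene or deletion, and the groups are the diet crossed with the infusion. The high-fat diet (HFD) supplied 45% of its energy as fat, with palm oil as the fat source, and the low-fat diet (LFD) supplied 10%. Propionate, acetate or butyrate was given as a sodium salt at 100 mM in saline, and the controls received saline (0 mM), in 80 µL on 6 consecutive days, with the colon taken 4 h after the last infusion. There were 4 arrays each for propionate HFD, acetate HFD, butyrate HFD, saline HFD, propionate LFD, butyrate LFD and saline LFD, and 3 for acetate LFD. The labels name 6 mice a group without linking mice to arrays, so p-values measure the spread between these arrays.

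Small nucleolar RNA host genes (Snhg genes, with Gas5 among them) are transcribed into a spliced noncoding RNA whose introns are trimmed to small nucleolar RNAs (snoRNAs), the guides for methylation and pseudouridylation of ribosomal RNA. The spliced Gas5 RNA, named for growth arrest, is known to begin with a terminal pyrimidine tract like the ribosomal protein mRNAs, to be removed by nonsense-mediated decay when it is translated, and to bind the glucocorticoid receptor. Malat1 holds no snoRNA: it is an abundant nuclear RNA of the splicing speckles, and cleavage of its 3′ end releases a small tRNA-like RNA.

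In the RefSeq annotation of GRCm38.p6, Gas5 lies at chr1:161034601-161038539 on the plus strand with 8 snoRNA genes inside it, 1 of them named (Snord47). Snhg17 lies at chr2:158353700-158361522 with 2 snoRNA genes and 1 pseudogene inside it. Snhg15 lies at chr11:6525591-6528760 with 1 snoRNA gene inside it. Malat1 lies at chr19:5795690-5802672 and holds Mascrna, the small RNA cut from its end. Each locus is a noncoding RNA gene without a coding sequence, and the positions of the probe sets within it were not used here.

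The promoters are shown so that the starts of the 4 genes can be compared. Each window holds 250 bases before and 50 bases after a transcription start listed by RefSeq (GRCm38.p6), and the capitals mark the cyclic AMP response element TGACGTCA, a palindrome searched on both strands, as were the other strings below, none of which overlaps it.
Gas5, second start, chr1:161034916-161035215, plus strand: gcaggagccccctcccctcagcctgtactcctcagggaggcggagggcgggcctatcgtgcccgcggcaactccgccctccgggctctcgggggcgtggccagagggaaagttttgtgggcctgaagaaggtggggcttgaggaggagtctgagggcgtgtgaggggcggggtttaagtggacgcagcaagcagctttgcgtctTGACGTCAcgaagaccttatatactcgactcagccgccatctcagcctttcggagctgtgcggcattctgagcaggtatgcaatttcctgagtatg
Snhg15, chr11:6528711-6529010, minus strand: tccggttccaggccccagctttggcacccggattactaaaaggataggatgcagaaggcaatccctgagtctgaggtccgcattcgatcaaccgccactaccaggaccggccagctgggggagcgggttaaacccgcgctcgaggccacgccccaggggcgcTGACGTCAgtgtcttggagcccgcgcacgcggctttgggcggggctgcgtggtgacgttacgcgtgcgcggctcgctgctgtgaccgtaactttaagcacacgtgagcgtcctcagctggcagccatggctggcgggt
Snhg17, first start, chr2:158361460-158361759, minus strand: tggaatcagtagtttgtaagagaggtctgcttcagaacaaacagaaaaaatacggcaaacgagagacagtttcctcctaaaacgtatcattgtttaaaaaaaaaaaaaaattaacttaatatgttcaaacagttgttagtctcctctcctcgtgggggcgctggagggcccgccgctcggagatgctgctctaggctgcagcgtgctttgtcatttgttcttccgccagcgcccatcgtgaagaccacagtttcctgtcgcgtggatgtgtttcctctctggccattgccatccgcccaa
Malat1, chr19:5802623-5802922, minus strand: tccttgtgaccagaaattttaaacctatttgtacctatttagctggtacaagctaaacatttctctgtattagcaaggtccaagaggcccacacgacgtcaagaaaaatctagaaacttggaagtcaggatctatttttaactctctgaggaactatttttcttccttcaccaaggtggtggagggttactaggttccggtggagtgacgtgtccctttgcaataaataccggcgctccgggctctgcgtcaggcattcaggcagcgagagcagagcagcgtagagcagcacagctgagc
TGACGTCA was present at -46 to -39 from the second Gas5 start and at -88 to -81 from the Snhg15 start, and it was not found in the windows of Snhg17, Malat1 or the first Gas5 start. It occurs in 1.79% of 32851 promoter windows of the same length. The second Gas5 window also held TATATA at -29 to -24, a string present in 5.67% of windows, and the Snhg15 window held the E-box CACGTG at 12 to 17 after the start, present in 7.15%. TATAAA (13.62% of windows) and CCAAT (37.41%) were in none of the 6 windows of the 4 genes on either strand. Transcription from the second Gas5 start begins with a C and 4 further pyrimidines, the form of a terminal oligopyrimidine start, which 2.51% of windows share. Transcription from the Snhg17 start of the window printed above begins with 6 pyrimidines whose first letter is a T, and the Snhg15 and Malat1 starts have no such tract. A match is a description of these letters and no evidence of a bound factor.

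Expression was read as log2 values after RMA, on which a difference of 1 is a 2-fold difference. Malat1 was the brightest of the 4 probe sets, with a mean of 11.35 that exceeded 98.7% of the tested probe sets. Gas5 averaged 8.63, Snhg17 averaged 7.72 and Snhg15 averaged 6.82. These levels do not order the RNAs by abundance, since probe sets differ in their response. Over the 31 arrays Snhg17 varied most, across 1.73 log2 units (3.32-fold), whereas Snhg15 spanned 0.95, Malat1 0.75 and Gas5 0.66. Epithelial markers were high throughout: the mean of 16 colonic epithelium genes lay between 11.15 and 11.38 on every array.

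Snhg17, a host of snoRNAs, was highest in propionate HFD mice. Its log2 level was 8.60, 8.85, 8.48 and 7.99 in propionate HFD colons, against 7.95, 8.04, 7.66 and 7.23 in saline HFD colons. Propionate HFD replicate 4 lay just under the highest saline HFD array, so these groups overlapped at that single array. In acetate HFD colons it was 7.69, 7.95, 7.12 and 7.15, and in butyrate HFD colons it was 7.71, 7.31, 7.72 and 7.48. All 4 propionate HFD arrays were above all 8 arrays of the other acids on HFD. On the low-fat diet the values were 7.41, 7.31, 7.39 and 7.33 with propionate, the lowest group mean and the smallest spread (7.36 ± 0.045, SD, n = 4). They were 8.30, 8.01 and 7.30 with acetate, 7.42, 7.60, 7.53 and 7.58 with butyrate, and 8.48, 7.56, 7.77 and 7.45 with saline. Of the LFD arrays, acetate replicates 1 and 2 and saline replicate 1 therefore reached the propionate HFD range.

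The fitted Snhg17 difference was 1.12 ± 0.22 (log2, SE) between propionate HFD and propionate LFD, a 2.17-fold difference, with no overlap of arrays. Propionate minus saline was 0.76 ± 0.22 on HFD and -0.45 ± 0.22 on LFD. Propionate exceeded acetate on HFD by 1.00 ± 0.22, and butyrate minus propionate on HFD was -0.92 ± 0.22. These comparisons share the propionate HFD arrays and are not separate evidence. Leaving out saline HFD replicates 1 and 2, which were high in smooth muscle transcripts, gave 1.04 ± 0.26 for propionate minus saline on HFD, and leaving out saline LFD replicate 1 gave -0.23 on LFD. The 2 other probe sets of Snhg17 varied with the first across the 31 arrays (Pearson r = 0.901 and 0.948, Spearman rho = 0.849 and 0.931), and their HFD minus LFD differences under propionate were 0.64 ± 0.19 and 1.11 ± 0.24. In bulk scrapings, fewer cells of a type and less RNA per cell cannot be told apart.

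**Figure D1:**
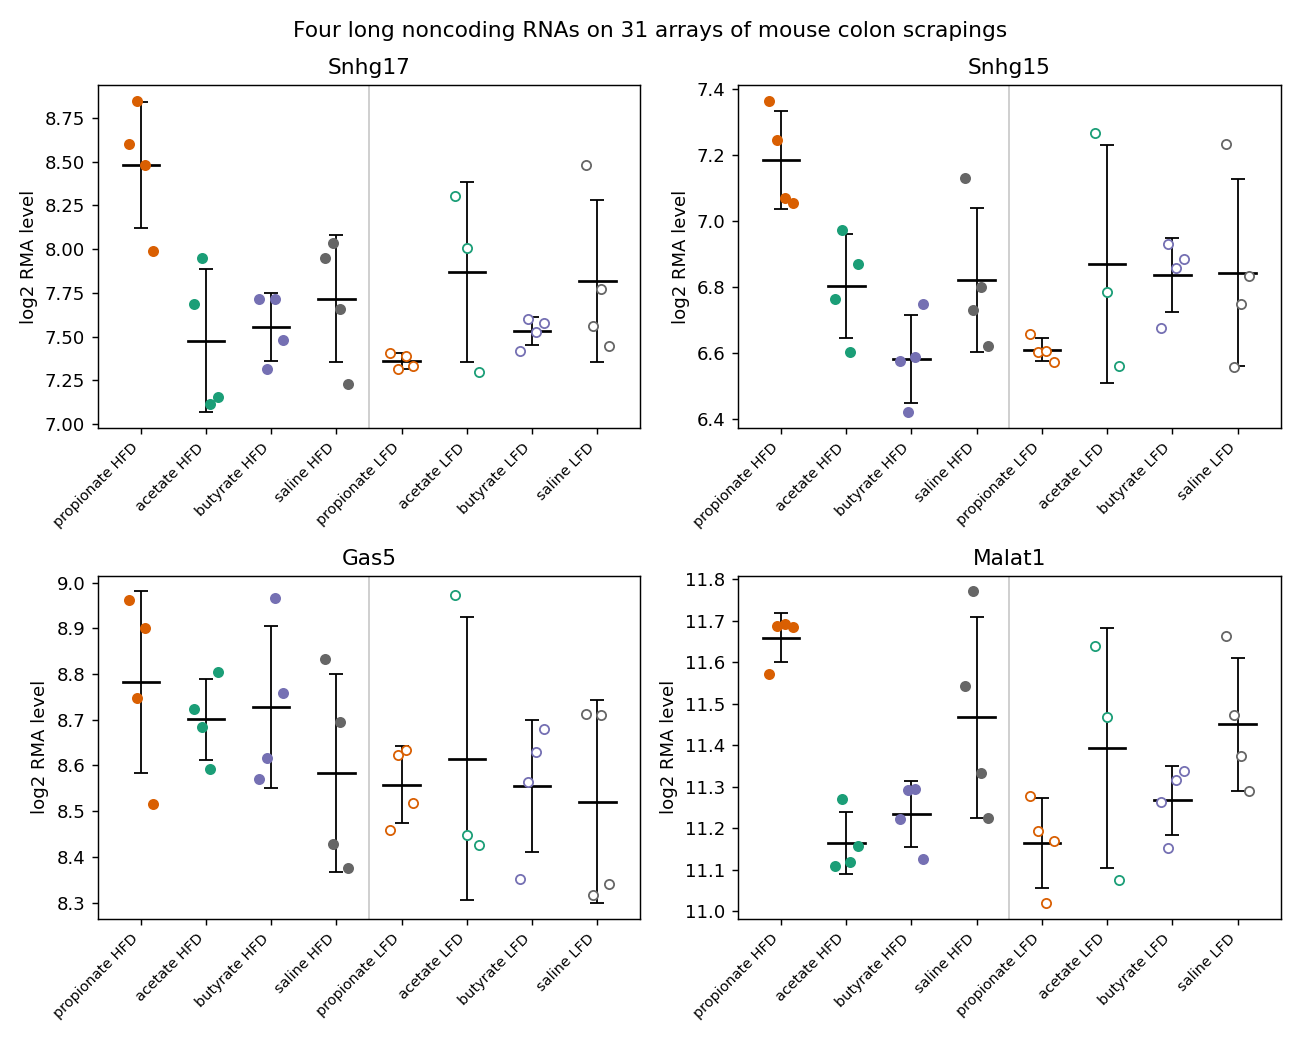
Log2 RMA level of Snhg17, Snhg15, Gas5 and Malat1 on each array (points; filled for HFD, open for LFD), with the group mean (line) and SD (bar) for the 8 groups. Propionate HFD arrays of Snhg17 lie between 7.99 and 8.85, and propionate LFD arrays between 7.31 and 7.41.

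Snhg15, a host RNA known to be short-lived, with a single annotated snoRNA, had the same highest group. Its log2 level was 7.36, 7.24, 7.07 and 7.06 in propionate HFD colons, against 7.13, 6.73, 6.80 and 6.62 in saline HFD colons. Saline HFD replicate 1 lay above the 2 lower propionate arrays, and the other 3 saline arrays lay below all of them. The 4 acetate HFD arrays ran between 6.60 and 6.97 and the 4 butyrate HFD arrays between 6.42 and 6.75, so neither overlapped with propionate HFD. The lowest group means were those of butyrate HFD (6.58 ± 0.13) and propionate LFD (6.61 ± 0.036, SD, n = 4 each). Acetate LFD ran between 6.56 and 7.27, butyrate LFD between 6.67 and 6.93, and saline LFD between 6.56 and 7.23. Its HFD minus LFD difference under propionate was 0.57 ± 0.13 (SE; 1.49-fold), and propionate minus saline was 0.36 ± 0.13 on HFD and -0.23 ± 0.13 on LFD. The LFD value became -0.10 without saline LFD replicate 1 and -0.42 ± 0.17 once 4 arrays rich in small-intestinal markers were left out. Butyrate minus propionate on HFD was -0.60 ± 0.13, and propionate minus acetate was 0.38 ± 0.13.

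Malat1, the speckle RNA, was highest and most even in propionate HFD colons, at 11.57, 11.69, 11.69 and 11.68. In saline HFD colons it was 11.54, 11.77, 11.33 and 11.22, a group that spread on both sides of the propionate values. Acetate HFD arrays ran between 11.11 and 11.27 and butyrate HFD arrays between 11.12 and 11.29, all below every propionate HFD array. Propionate LFD arrays were 11.28, 11.19, 11.02 and 11.17, also below every propionate HFD array. Acetate LFD ran between 11.07 and 11.64, butyrate LFD between 11.15 and 11.34, and saline LFD between 11.29 and 11.66. The difference between propionate HFD and propionate LFD was 0.49 ± 0.10 (SE; 1.41-fold), that between propionate HFD and acetate HFD was also 0.49 ± 0.10, and butyrate minus propionate on HFD was -0.43 ± 0.10. Propionate minus saline was 0.19 ± 0.10 on HFD and -0.29 ± 0.10 on LFD. The HFD value depended on which saline arrays were kept. It was 0.38 ± 0.11 without saline HFD replicates 1 and 2, the arrays high in smooth muscle transcripts, and 0.11 without saline HFD replicate 4.

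Gas5, by its brightest probe set (10351026), differed little between groups. Its log2 level was 8.96, 8.75, 8.90 and 8.52 in propionate HFD colons, against 8.83, 8.43, 8.70 and 8.38 in saline HFD colons. It was 8.46, 8.62, 8.63 and 8.52 in propionate LFD colons, and 8.71, 8.32, 8.71 and 8.34 in saline LFD colons. Acetate HFD arrays ran between 8.59 and 8.80, butyrate HFD arrays between 8.57 and 8.97, acetate LFD arrays between 8.43 and 8.97 and butyrate LFD arrays between 8.35 and 8.68. Neighbouring group means overlapped throughout, and the highest and lowest group (propionate HFD at 8.78 ± 0.20 and saline LFD at 8.52 ± 0.22, SD, n = 4 each) overlapped as well. The HFD minus LFD difference was 0.22 ± 0.13 under propionate, and it was 0.14 ± 0.064 averaged over all 4 infusions. On the other Gas5 probe sets, described below, that average was not above 0. It was -0.02 ± 0.062 on 10351037, -0.02 ± 0.10 on 10351035 and -0.37 ± 0.11 on 10351039.

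In order of group means, every group overlapped with the next for all 4 genes, so no neighbouring pair was separated by its arrays. Under propionate, 3 of the 4 genes (Snhg17, Snhg15 and Malat1) were past an adjusted p of 0.05 for HFD against LFD in limma, where 6.87% of 12795 tested genes were called. These genes were chosen with that contrast known, so nothing is read from this count. Averaged over infusions, none of the 4 was called for diet, against 2.7% of tested genes (345), and none was among the 8 genes (0.0625%) called for butyrate against propionate on HFD. The change of the propionate response with diet (propionate minus saline on HFD, minus the same on LFD) was 1.22 ± 0.31 for Snhg17, 0.60 ± 0.19 for Snhg15, 0.48 ± 0.14 for Malat1 and 0.16 ± 0.18 for Gas5 (log2, SE). No gene passed for this difference in limma (0% called, with 1643 at an unadjusted p under 0.05).

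**Figure D2:**
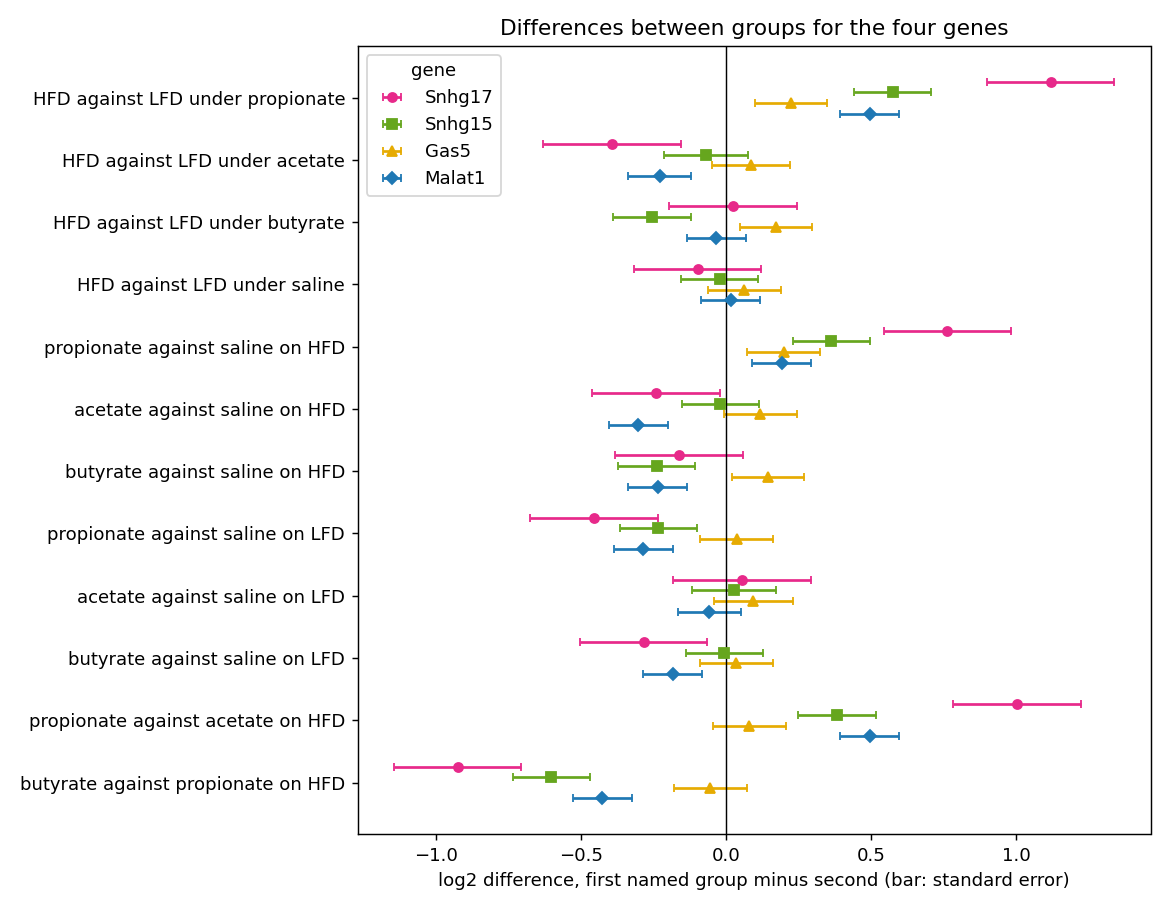
Log2 difference between groups (first named minus second; point, with the limma SE as a bar) for the 4 genes in 12 comparisons. Snhg17, Snhg15 and Malat1 are to the right of 0 for propionate HFD against propionate LFD, saline HFD and acetate HFD, and to the left for butyrate against propionate on HFD, and Gas5 lies between -0.05 and 0.22 throughout.

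The comparisons without propionate HFD or saline HFD arrays were tested. For propionate against saline on LFD none of the 4 genes passed (limma, adjusted p = 0.972 for Snhg17, Snhg15 and Malat1 and 0.988 for Gas5). No tested gene passed there (0% called, with 487 at an unadjusted p under 0.05). Its arrays also enter the change of the propionate response with diet, which was known when the genes were chosen. The saline LFD arrays among them are used again in acetate and butyrate against saline on LFD. Those tests are therefore not free of the choice of genes either. For acetate against saline on LFD, butyrate against saline on LFD, HFD against LFD under acetate and HFD against LFD under butyrate, none of the 16 tests of these 4 genes passed (limma, adjusted p from 0.644 to 1), and no tested gene did (0% called each). Unadjusted p-values under 0.05 numbered 193, 358, 986 and 469 of 12795 genes in these comparisons in that order. For Snhg17, acetate minus saline on LFD was 0.05 with a 95% interval of -0.43 to 0.54, and butyrate minus saline was -0.28 with an interval of -0.73 to 0.17. For Malat1 the acetate difference was -0.06 (-0.28 to 0.17) and the butyrate difference -0.18 (-0.39 to 0.03). For Snhg15 the acetate difference was 0.03 (-0.27 to 0.32) and the butyrate difference -0.01 (-0.28 to 0.27). For Gas5 they were 0.09 (-0.18 to 0.37) and 0.03 (-0.22 to 0.29). The acetate differences changed with single arrays. Without acetate LFD replicate 1 they were -0.16 for Snhg17, -0.17 for Snhg15, -0.18 for Malat1 and -0.08 for Gas5, and without acetate LFD replicate 3 they were 0.34, 0.18, 0.10 and 0.19 in the same order. The butyrate difference of Snhg17 was -0.06 without saline LFD replicate 1.
The diet difference under acetate was -0.39 (-0.88 to 0.09) for Snhg17 and -0.23 (-0.45 to -0.0039, adjusted p = 0.644) for Malat1, and it was -0.07 (-0.36 to 0.23) for Snhg15 and 0.09 (-0.19 to 0.36) for Gas5. Without acetate LFD replicate 3 it was -0.68 for Snhg17, -0.39 for Malat1, -0.22 for Snhg15 and -0.01 for Gas5, and without acetate LFD replicate 1 it was -0.18, -0.11, 0.13 and 0.26 in the same order. Under butyrate it was 0.02 (-0.43 to 0.47) for Snhg17, -0.25 (-0.53 to 0.02) for Snhg15, -0.03 (-0.24 to 0.17) for Malat1 and 0.17 (-0.08 to 0.43) for Gas5. Under saline, given without a test because saline HFD arrays took part in the choice of genes, the diet difference ran between -0.10 and 0.06 for the 4 genes. In the other saline comparisons of HFD mice, acetate minus saline was -0.24 ± 0.22 for Snhg17 and -0.30 ± 0.10 for Malat1, and butyrate minus saline was -0.16 ± 0.22 and -0.23 ± 0.10. These values became 0.03 and -0.11 for acetate, and 0.11 and -0.04 for butyrate, without saline HFD replicates 1 and 2.

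The probe sets of Gas5 disagreed with each other. GEO's platform table lists 4 probe sets for Gas5 alone, and the second in brightness (10351037, mean 8.58) was nearly as bright as the first (8.63). On 10351037 the log2 level was 8.91, 9.10, 8.92 and 8.59 in propionate HFD colons, against 8.70, 8.63, 8.47 and 8.36 in saline HFD colons. It was 8.48, 8.54, 8.51 and 8.38 in propionate LFD colons, and 9.06, 8.55, 8.68 and 8.55 in saline LFD colons. Among these 4 groups this is the order seen for Snhg17, with propionate HFD above propionate LFD on every array and saline LFD replicate 1 standing high. Over all 8 groups the order differed, since 10351037 was lowest in acetate HFD (8.40) and Snhg17 in propionate LFD (8.48 on 10351037). Its HFD minus LFD difference under propionate was 0.40 ± 0.12, its propionate minus saline difference was 0.34 ± 0.12 on HFD and -0.23 ± 0.12 on LFD, and its change of the propionate response with diet was 0.57 ± 0.17 (SE). Without saline LFD replicate 1 its LFD difference was -0.12. Across the 31 arrays 10351037 varied with Snhg17 (r = 0.929, rho = 0.840; 0.926 for deviations from group means), whereas 10351026 did so less (r = 0.486, rho = 0.443) and the 2 Gas5 probe sets were only loosely related (r = 0.373, rho = 0.267). The third probe set, 10351035 (mean 6.64), gave 0.16 ± 0.20 for HFD minus LFD under propionate. The fourth, 10351039, was dim, reached an intensity of 20 on 21 of 31 arrays and gave -0.46 ± 0.21. Its diet difference was also below 0 under saline (-0.40 ± 0.21), butyrate (-0.48 ± 0.21) and acetate (-0.14 ± 0.23). Its change of the propionate response with diet was -0.06 ± 0.30. A statement on Gas5 in these mice therefore depends on the probe set, and which exons, introns or snoRNAs each one covers was not tested.

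**Figure D3:**
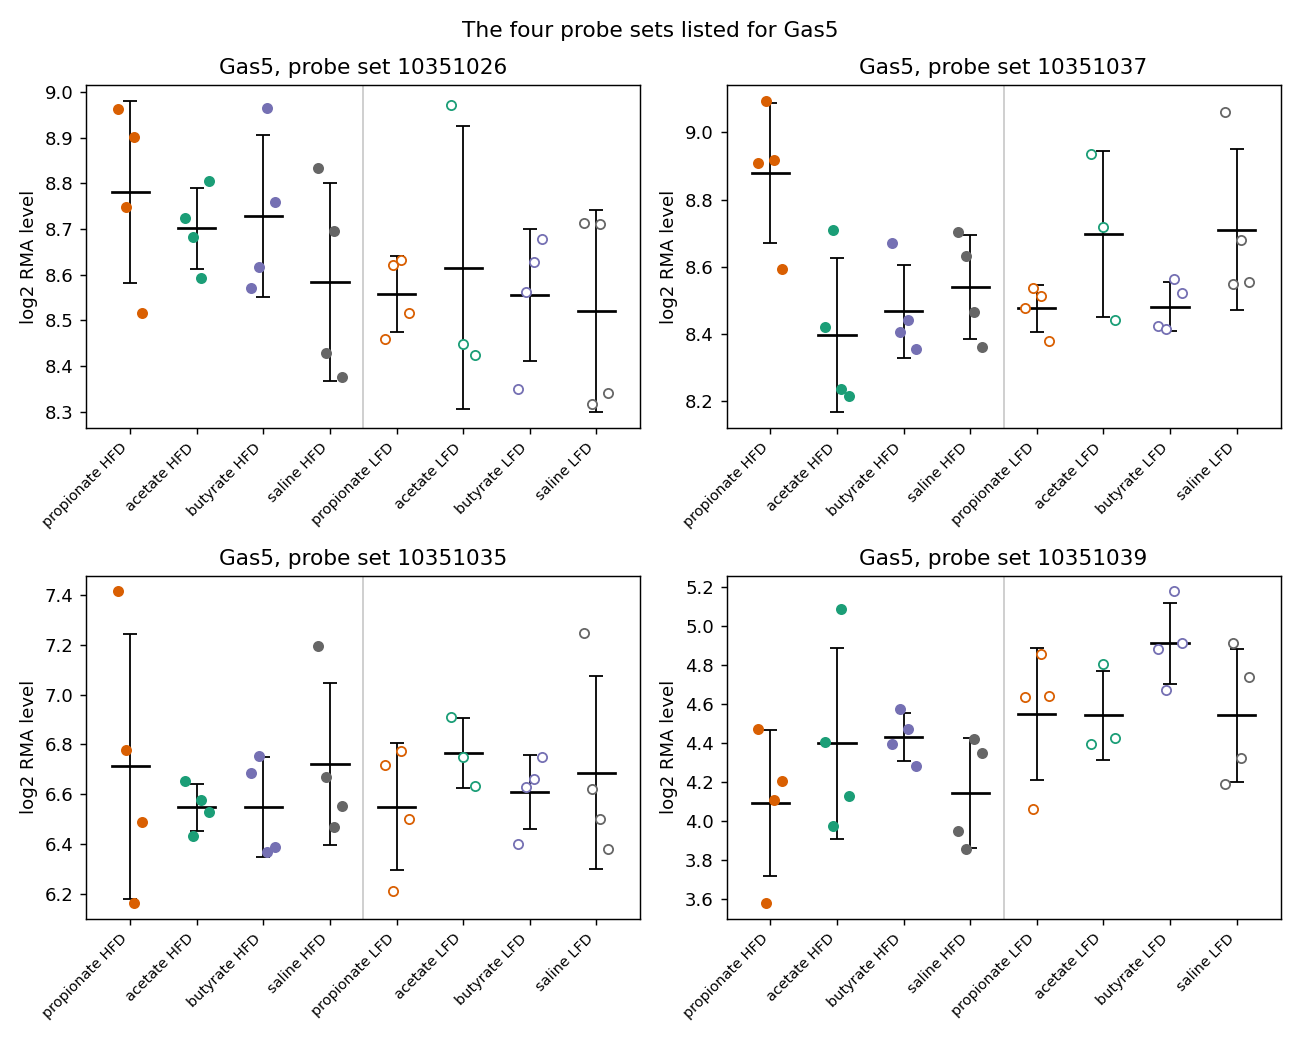
Log2 RMA level on each array for the 4 probe sets listed for Gas5 (points; filled for HFD, open for LFD), with group mean (line) and SD (bar). Probe set 10351037 separates propionate HFD from propionate LFD, while 10351026 does not, and 10351039 runs the other way at the edge of detection.

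Snord47, a snoRNA encoded inside Gas5 that guides methylation of ribosomal RNA, has a probe set of its own. Its log2 level was 7.68, 7.91, 7.74 and 7.22 in propionate HFD colons, against 7.47, 7.20, 7.25 and 6.99 in saline HFD colons. It was 7.19, 7.19, 7.25 and 6.96 in propionate LFD colons, and 8.05, 7.28, 7.37 and 7.23 in saline LFD colons. HFD minus LFD under propionate was 0.49 ± 0.16 and did not pass (limma, adjusted p = 0.0551), and butyrate minus propionate on HFD was -0.64 ± 0.16 (adjusted p = 0.0664). Over 31 arrays Snord47 varied with Gas5 probe set 10351037 (r = 0.930, rho = 0.852) and far less with 10351026 (r = 0.323, rho = 0.246). All of these are correlations across arrays that share the groups, and they are given as a description.

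The snoRNAs as a class followed the same arrays. This class and the lists below were chosen with earlier results of these data known, so their counts and p-values are a description. Of 55 tested small nucleolar and Cajal body RNAs, taken by their symbols, 34 rose and none fell in propionate HFD against propionate LFD colons, where 6.87% of all tested genes were called in either direction. The median difference was 0.65, against -0.02 over all 12795 tested genes, and 53 of 55 differences were above 0. Snora33 (2.10 ± 0.45, adjusted p = 0.0153) was the largest of those that passed, and Snora73a (1.65 ± 0.38, adjusted p = 0.0156) was one of the genes most like Snhg17. The count was 1 without propionate HFD replicate 2, 8 without propionate HFD replicate 3, and 10 without propionate LFD replicate 3 or 4. Butyrate against propionate on HFD gave 4 called snoRNAs, all lower (Snora33, Snora5c, Snora7a and Snord15a), and no gene at all was called there without propionate HFD replicate 2 or 3 or without butyrate HFD replicate 1, 2 or 4. The mean of the 55 RNAs was 7.78, 8.00, 7.79 and 7.40 on the propionate HFD arrays, and 7.78 on saline LFD replicate 1 and 7.58 on acetate LFD replicate 1, the arrays on which Snhg17 also stood high. Over 31 arrays this mean varied with Snhg17 (r = 0.960, rho = 0.919), with Snhg15 (r = 0.804, rho = 0.674), with Malat1 (r = 0.784, rho = 0.739), with Gas5 probe set 10351037 (r = 0.947, rho = 0.913) and with 10351026 (r = 0.437, rho = 0.343). Without the 4 propionate HFD arrays (n = 27) these r values were 0.920, 0.703, 0.708, 0.933 and 0.277, in that order, so for all but the last the shared variation was also present in the other groups. The points share library preparation, and arrays of 1 group share a diet and an infusion. The arrays listed first in the series were propionate HFD replicates 1 and 2. With them stood replicate 1 of saline HFD, saline LFD, butyrate HFD and acetate LFD. On Gas5 10351037 they read 8.91, 9.10, 8.70, 9.06, 8.67 and 8.94 in that order. Of the later arrays, propionate HFD replicate 3 read 8.92 and the rest at most 8.72, with acetate HFD replicate 1, listed next, at 8.42. For Snhg17 the same early arrays read 8.60, 8.85, 7.95, 8.48, 7.71 and 8.30, and the later saline HFD replicate 2 read 8.04. For Snhg15 they read 7.36, 7.24, 7.13, 7.23, 6.57 and 7.27, and the later acetate HFD replicate 2 read 6.97. The early arrays were thus not uniformly high for these genes. No propionate LFD array was among the first, and a part of the listing order was not tested.

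**Figure D4:**
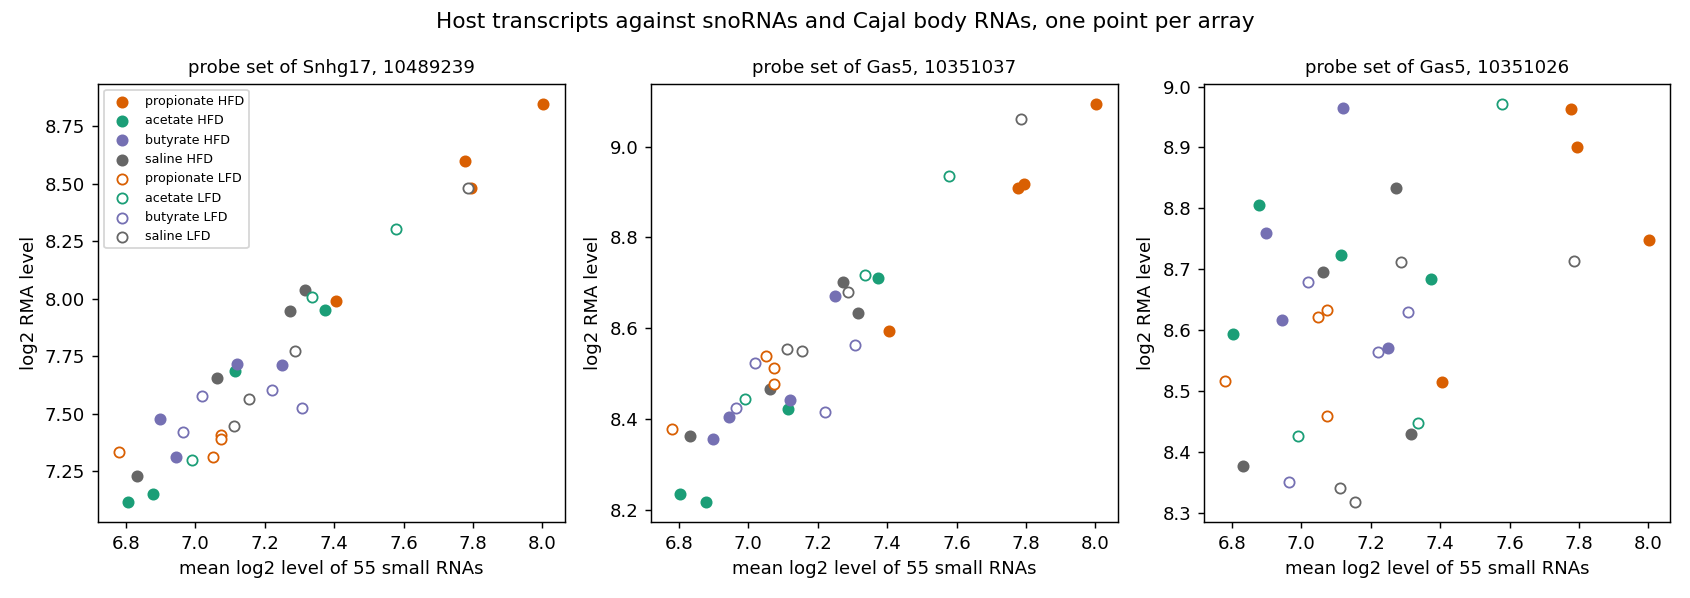
Log2 RMA level of Snhg17 and of Gas5 probe sets 10351037 and 10351026 (y axes) against the mean log2 level of 55 small nucleolar and Cajal body RNAs (x axis), 1 point per array. Snhg17 and 10351037 lie along a line (r = 0.960 and 0.947) and 10351026 is scattered (r = 0.437).

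Among themselves, Snhg17 varied with Malat1 (r = 0.825, rho = 0.779) and with Snhg15 (r = 0.815, rho = 0.683), and Snhg15 with Malat1 (r = 0.661, rho = 0.543), over 31 arrays. For deviations from group means the r values were 0.669, 0.726 and 0.445 in the same order. Gas5 probe set 10351026 was closest to Snhg15 (r = 0.553) and far from Malat1 (r = 0.227). The tested genes most like Snhg17 over the 31 arrays were small RNAs without exception: Snord55 (r = 0.960), Snora73a, Snord15b (both 0.943), Scarna13 and Snora73b (both 0.935). Those most like Snhg15 were Scarna13 (0.864), Rmrp (0.860), Snord15b, Snora73a and Snora52. Malat1 was most like Golga4 (0.890), a golgin of the Golgi, and Ndufa6 (0.888), a subunit of respiratory complex I, followed by the Y RNA Rny1 (0.850), Snora73a and Snora16a. Gas5 (10351026) was most like Znfx1 (0.893), Ccpg1 (0.850), Smyd3, Igbp1 and the ribosomal protein gene Rpl22 (0.833). The median r of a tested gene with each of the 4 lay between -0.06 and 0.00.

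Other snoRNA hosts were examined from a list of 21, of which 7 had a probe set listed for them alone and 4 were not among the genes above. Snhg20 alone of these 4 passed in propionate HFD against propionate LFD colons, where 6.87% of all tested genes were called. It was 6.57, 7.03, 6.79 and 6.29 in propionate HFD colons, against 6.24, 6.32, 6.04 and 5.87 in propionate LFD colons (0.56 ± 0.16, adjusted p = 0.0347). Propionate HFD replicate 4 lay below propionate LFD replicate 2, so the groups overlapped at that array. Snhg5, which like Gas5 is known for a terminal pyrimidine start, differed by 0.29 ± 0.12 (adjusted p = 0.125), Snhg11 by 0.15 ± 0.13 (0.484) and Snhg16 by 0.10 ± 0.13 (0.684). The median of the 4 was 0.22, and all 4 were above 0. The call of Snhg20 was lost in 5 of 16 alternatives: without propionate HFD replicate 2 or 3, without propionate LFD replicate 3 or 4, or with the compared groups alone, with an adjusted p of up to 0.141. No host was called in any of the other 13 comparisons.

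Of a list of 27 other noncoding RNAs, Malat1 among them, 15 had such a probe set and 12 were tested. Besides Malat1, 2 of 11 rose in propionate HFD against propionate LFD colons, and none fell, against 6.87% of all tested genes called. Rmrp, the RNA of the enzyme RNase MRP that cleaves ribosomal RNA precursors, was 12.00, 11.92, 11.39 and 11.47 in propionate HFD colons, against 11.18, 11.08, 10.96 and 10.75 in propionate LFD colons (0.70 ± 0.20, adjusted p = 0.0374), with no overlap. Terc, the telomerase RNA, was 7.84, 7.89, 7.68 and 7.80 in propionate HFD colons, against 7.37, 7.48, 7.23 and 7.51 in propionate LFD colons (0.40 ± 0.11, adjusted p = 0.0338), again with no overlap. Rmrp stayed called in 9 and Terc in 10 of 16 alternatives, and both lost the call without propionate HFD replicate 2 or 3 and without propionate LFD replicate 3 or 4. Firre, a nuclear RNA of chromosome architecture, differed by 0.34 ± 0.11 (adjusted p = 0.0545), Lncpint by 0.36 ± 0.20 (0.272), the imprinted RNA Meg3 by 0.55 ± 0.39 (0.408), Mir17hg by 0.22 ± 0.13 (0.313), Morrbid by 0.16 ± 0.090 (0.269) and the transcription regulator Rn7sk by 0.11 ± 0.042 (0.103). Pvt1 differed by 0.03 ± 0.11 (0.908). The cytoplasmic RNA Norad at -0.28 ± 0.099 (0.0845) and Tug1 at -0.07 ± 0.055 (0.441) were the 2 of 11 below 0. Xist, Dleu2 and Rian did not pass the filter.

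**Figure D5:**
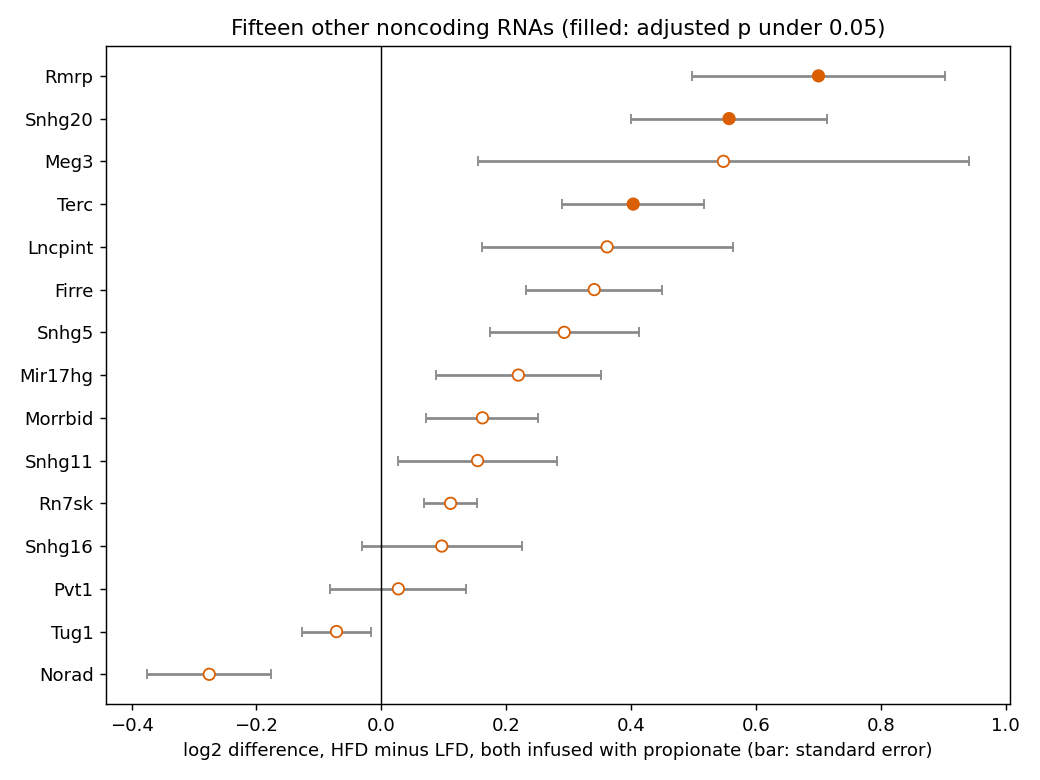
Log2 difference of propionate HFD minus propionate LFD (point, with the limma SE as a bar) for 15 tested noncoding RNAs other than the 4 described in detail; filled points had an adjusted p under 0.05. Rmrp (0.70), Snhg20 (0.56) and Terc (0.40) are filled, and Norad and Tug1 lie left of 0.

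Genes that act with these RNAs were taken from lists chosen with earlier results known, and the counts below are for propionate HFD against propionate LFD, where 6.87% of all tested genes were called. Of 67 cytosolic ribosomal protein genes, whose mRNAs share the terminal pyrimidine start, 14 rose and none fell (median 0.12), with Rpl24 (0.61 ± 0.16), Rps28 (0.55 ± 0.13), Rps12 (0.55 ± 0.13), Rpl22 (0.53 ± 0.15), Rps27 (0.50 ± 0.11) and Rps29 (0.48 ± 0.13) the largest. No ribosomal protein gene was called without propionate HFD replicate 2 or 3 or without propionate LFD replicate 3 or 4, and 5 were once the 4 arrays rich in small-intestinal markers were left out. Of 17 translation factors of the same start class, 1 rose (Eif4b, 0.30 ± 0.091, adjusted p = 0.0424), and its call was kept in 8 of 16 alternatives. Over 31 arrays the ribosomal protein mean varied with Snhg17 (r = 0.911, rho = 0.875) more than with Gas5 10351026 (r = 0.623, rho = 0.566).

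Of 18 proteins of snoRNA particles and their assembly none rose and 1 fell, Shq1, an assembly factor of H/ACA particles (-0.45 ± 0.11, adjusted p = 0.0189), with a median of -0.17. Of 15 nonsense-mediated decay factors 1 fell, the release factor Gspt1 (-0.57 ± 0.13, adjusted p = 0.0175), and the other 14 did not pass. The mean of these decay factors ran against Snhg15 (r = -0.656), Snhg17 (r = -0.584), Malat1 (r = -0.527) and Gas5 10351026 (r = -0.41) over the 31 arrays. Of 13 other transcripts known to be sensitive to decay, 1 fell (Srsf3, -0.39 ± 0.10, adjusted p = 0.0267). Around Malat1, 2 of 23 splicing speckle proteins fell (Srsf3 again, and Srsf1, another splicing factor, at -0.24 ± 0.073, adjusted p = 0.0455), 1 of 13 paraspeckle proteins rose (Ewsr1, 0.27 ± 0.082, adjusted p = 0.0438), and none of 13 genes for the cleavage of its end or binding of its triple helix passed (median -0.12). The call was kept in 3 of 16 alternatives for Srsf1, in 7 for Ewsr1 and in 12 each for Shq1, Gspt1 and Srsf3. None of 16 glucocorticoid receptor genes and targets and none of 17 growth arrest and mTOR genes passed. Each of these lists of 13 to 23 genes held at most 2 calls, near the 6.87% called over all tested genes. Nothing about the lists is therefore read from these counts.

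Other cell types were followed through marker lists. A list of 16 small-intestinal genes stood high on propionate LFD replicate 2 (mean 8.65), saline LFD replicates 2 and 3 (8.50 and 8.27) and saline HFD replicate 2 (8.22), and at most 7.08 elsewhere. It averaged between 6.64 and 7.05 on propionate HFD arrays and between 6.90 and 8.65 on propionate LFD arrays. Of its 16 genes 1 fell between these groups, where 6.87% of all tested genes were called. Without those 4 arrays the HFD minus LFD difference under propionate was 1.10 ± 0.24 for Snhg17, 0.57 ± 0.14 for Snhg15, 0.50 ± 0.10 for Malat1 and 0.25 ± 0.14 for Gas5. The mean of 9 smooth muscle genes was 6.80 and 6.56 on saline HFD replicates 1 and 2 and at most 5.98 elsewhere, and it lay between 5.23 and 5.43 on propionate HFD and between 5.29 and 5.80 on propionate LFD arrays. None of 9 smooth muscle, 12 immune, 7 adipocyte, 5 endothelial, 3 neuron and glia or 16 colonic epithelium genes passed between those groups. Over 31 arrays the r of the 4 RNAs with the small-intestinal mean lay between -0.35 and 0.16, with the smooth muscle mean between -0.07 and 0.23, and with the colonic epithelium mean between -0.44 and -0.05. The part of these cell types in the differences was not tested beyond the values without those arrays.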

How the data were processed

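RNA from colonic scrapings was extracted with TRIzol and RNeasy columns, which retain short RNAs poorly, amplified with the Ambion WT expression kit and hybridised to 31 arrays, per the labels' protocols. The authors deposited log2 values made with RMA, named without a version in the submitters' processing notes, and no other step is recorded there. Of 35556 probe sets, 21218 carried 1 symbol in GEO's platform annotation, 1881 several and 12457 were not listed. The one with the highest mean stood for each of 18820 genes, and 12795 genes with an intensity of at least 20 (log2 4.32) on 3 arrays were tested. Array medians lay between 5.14 and 5.19, and the number of arrays limits the precision.

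limma 3.58.1 in R 4.3.3 (lmFit, eBayes with an intensity trend) was fitted with 8 group means, and p-values were adjusted by Benjamini-Hochberg over all tested genes at 0.05. In data simulated for propionate against saline on HFD (12795 genes), 64.3% of 0.5 and 97.1% of 1 log2 shifts were recovered, with 12 false calls. The simulated noise was independent between genes, whereas genes varied together across these arrays, so the shares may not hold for the real data. The members and lists were chosen with earlier results of these data known. The text names the 4 members with all their probe sets, the 5 genes most correlated with each, every tested host and other noncoding RNA listed, up to 6 called genes of the other lists, and Snord47. Replicate numbers were not taken as pairing the arrays. Alternatives covered the filter, moderation, probe sets, quantile normalization, samples, replicate block and leaving out arrays.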

Additional observations from a re-analysis of the deposited data

Results flagged for a closer look

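Malat1 on propionate HFD replicate 1 (11.57) lay apart from the other 3 arrays of its group (11.68 to 11.69), with a gap of 0.927 of the group's range. It was the only array that stood apart in this way among 28 sets of 4 arrays (4 genes in 7 groups), where chance alone marks about 1 in 20. The array was still above every acetate HFD, butyrate HFD and propionate LFD array.

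The propionate response (propionate minus saline) ran in opposite directions on the diets for 3 genes, above 0 on HFD and below 0 on LFD. The difference between the responses was 1.22 for Snhg17, 0.60 for Snhg15 and 0.48 for Malat1 (log2). The genes were chosen with these values known, so the difference was not tested for them.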

How the results depend on the processing

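Of 1036 values of the 4 genes under alternatives, 1029 moved by less than 1 SD and 7, all of Malat1, by more, and 47 changed sign, all of differences of at most 0.24 in size. The HFD minus LFD difference under propionate lay between 1.00 and 1.28 for Snhg17, 0.51 and 0.62 for Snhg15, 0.45 and 0.53 for Malat1 and 0.16 and 0.31 for Gas5. Counts of called genes were less steady. With the stricter filter 11 genes were called for propionate against acetate on HFD (0 in the fit above) and 53 for butyrate against propionate on HFD (8 above). With all probe sets these were 53 and 34, and with quantile normalization 24 and 22, with 1 for acetate against saline on HFD. Without the intensity trend butyrate against propionate gave 2. Once the 4 arrays rich in small-intestinal markers were left out, the counts were 2 for that comparison, 559 for diet over all infusions, 2 for diet under saline and 1 for the change of the propionate response. Without saline HFD replicates 1 and 2 diet over all infusions gave 115. These last alternatives were chosen after seeing the data, and the causes were not tested.

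With the replicate block, 72 genes were called for propionate against acetate on HFD, 64 for butyrate against propionate on HFD, 1 for propionate against saline on HFD and 11 for the change of the propionate response. Deviations of same-numbered arrays had a mean r of 0.0408 over 105 pairs, with 42 over 0.1, against -0.0135 over 315 other pairs, with 86 over 0.1. Same-numbered pairs were thus over 0.1 more often than other pairs, and 12 of 31 arrays correlated best with their own number. Some such matches arise by chance, since 105 pairs shared a number beside 315 that did not. The fit above did not take the numbers as a pairing, and whether they mark a shared step was not tested.

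Leaving out each array in turn gave 11 to 1731 genes for HFD against LFD under propionate (879 above), lowest without propionate HFD replicate 2 and also low without propionate HFD replicate 3 (52), propionate LFD replicate 3 (33), propionate LFD replicate 4 (114) and propionate LFD replicate 1 (464). It gave 127 to 1027 for diet over all infusions (345 above), 0 to 585 for butyrate against propionate on HFD, 0 to 147 for propionate against acetate on HFD, 0 to 13 for the change of the propionate response and 0 in the other comparisons. Arrays hold no read depth; signal over background limits Gas5 probe set 10351039.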
